A study of Homo sapiens with 108 samples.

Results

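Metallothioneins and the zinc exporter SLC30A1 were followed in HEK293T, a transformed line from human embryonic kidney, after knockdown of zinc-finger proteins. The set holds 6 of the 19761 genes in the deposited tables. Its members, MT1E, MT1F, MT1G, MT1X, MT2A and SLC30A1, were listed by name as read-outs of free zinc. The rule itself uses no measured value, but the members were chosen with earlier results of these data known. RNA was labelled and chased by SLAM-seq, in which cells build 4-thiouridine (4SU) into new RNA and alkylated 4SU is read as C, so that labelled transcripts carry T>C conversions. Cells received 10 µM 4SU for 24 h with fresh medium every 8 h, then 1 mM uridine for 0, 2, 4 or 8 h. Lentiviral short hairpin RNAs (shRNAs) against ZNF706, ZMAT5, ZMAT3, ZFP36L1, PHF7, MAZ, CNOT4 or BRCA1 were compared with a non-targeting hairpin (NT). Every arm, NT included, was infected, selected with puromycin and given 4SU. With 3 replicates at each of 4 chase times, each of the 9 arms has 12 libraries. Each arm rests on 1 hairpin in pooled selected cells, so an off-target effect of that hairpin cannot be told apart from the loss of its target.

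Metallothioneins are small cysteine-rich proteins that hold zinc and copper ions in the cytosol. SLC30A1, also called ZnT1, sits in the plasma membrane and carries zinc out of the cell. Their genes are the classic targets of MTF1, a transcription factor whose own zinc fingers sense free zinc and which then binds metal response elements in promoters. A rise of free zinc therefore raises both kinds of mRNA, and metallothionein mRNAs also respond to other metals, oxidants and glucocorticoids.

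The metal response element core, TGCACNC or TGCGCNC on either strand, was searched in the 250 bases before each gene's start, since it is the letter pattern through which MTF1 acts on these genes. RefSeq promoters (GRCh38.p14) were matched for 3 of the 6 genes, MT2A, MT1X and SLC30A1. The stretches with matches are printed 5′ to 3′ on the strand of the gene, with the matches in capitals. They lie at chr16:56608334-56608583 (MT2A, plus strand), chr16:56682310-56682433 (MT1X, plus strand) and chr1:211579194-211579220 (SLC30A1, minus strand).
MT2A: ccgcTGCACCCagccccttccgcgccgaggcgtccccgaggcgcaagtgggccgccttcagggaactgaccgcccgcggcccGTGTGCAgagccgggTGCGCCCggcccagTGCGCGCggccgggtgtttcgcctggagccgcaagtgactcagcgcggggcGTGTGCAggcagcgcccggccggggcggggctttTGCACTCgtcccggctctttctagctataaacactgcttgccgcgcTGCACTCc
MT1X: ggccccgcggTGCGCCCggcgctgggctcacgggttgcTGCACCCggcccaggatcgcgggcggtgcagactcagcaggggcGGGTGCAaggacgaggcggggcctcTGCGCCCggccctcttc
SLC30A1: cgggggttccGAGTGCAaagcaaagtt
The MT2A promoter held 7 matches, and 0.0313% of 35116 promoters of this length held as many. MT1X held 4, and 0.370% of promoters held as many. SLC30A1 held 1, at bases 49 to 43 before the start, and 24.8% of promoters held at least 1. A match describes the letters only.

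Sequencing depth was uneven. Reads in 3′ UTR intervals numbered 63659 to 30750027 per library, with a median of 14870063. The CNOT4 and ZFP36L1 arms stood apart from the rest. Their reads covered 27.66 to 34.01 and 25.94 to 33.04 T positions each, against 37.07 to 37.8 in NT, and up to 11.86% and 12.43% of their reads were multimapped, against up to 6.91% in NT. The targeted mRNA averaged 12.2%, 24.8%, 10.5% and 50.5% of NT in the MAZ, ZMAT3, ZMAT5 and ZNF706 arms and passed the test below. It stood at 53.8% in the BRCA1 arm and 29.3% in the PHF7 arm without passing, with adjusted p of 0.220 and 0.336. CNOT4 mRNA was at 100.5% of NT and ZFP36L1 mRNA was higher, at 171.8% of NT (log2 0.80, adjusted p = 0.0023 by edgeR), so these arms are called the libraries labelled CNOT4 and ZFP36L1. Among HEK293T markers, LIN28B and INA had reads in every library, NEFM in 106 and PAX2 in 46. Among markers of other cells HBB had no read, PTPRC, KRT5, CD3E, ALB, PECAM1 and CD14 had reads in 6 to 38 libraries, and COL1A1 had reads in 107 with a median of 14.9 CPM.

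All 5 metallothionein genes lie in the cluster on the long arm of chromosome 16 and SLC30A1 lies on chromosome 1 (hg38). The counted 3′ UTR intervals were 56609183 to 56609497 for MT2A (ENSG00000125148, plus strand), 56626819 to 56627112 for MT1E (ENSG00000169715, plus), 56658779 to 56658782 and 56659073 to 56659305 for MT1F (ENSG00000198417, plus), 56666731 to 56667201 for MT1G (ENSG00000125144, minus), and 56683275 to 56683603 and 56683958 to 56684196 for MT1X (ENSG00000187193, plus). For SLC30A1 (ENSG00000170385, minus strand) the interval ran from 211571568 to 211575390. None of the 6 shared counted bases with another gene. Over all libraries MT2A had 112912 reads, SLC30A1 63938, MT1X 32146, MT1F 22806, and MT1E and MT1G 2 each.

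Metallothionein genes resemble one another closely, so the multimapped share of their reads was followed. It was 0.609% for MT2A, 0.0751% for SLC30A1, 1.57% for MT1F and 10.9% for MT1X, while every read of MT1E and MT1G was multimapped. For MT1X the share depended on the arm. It was 42.5% in the libraries labelled CNOT4 and 38.1% in those labelled ZFP36L1, against 9.46% in NT, and lay between 5.40% and 10.4% in the other 6 arms. All multimapped MT1X reads fell in its last interval.

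MT2A, the main metallothionein of most cells, was the member with the clearest difference. In the 12 libraries labelled ZFP36L1 it ranged from 122.9 to 190.8 with a median of 157.5 normalised CPM, against 23.5 to 80.9 with a median of 63.2 in NT. CPM here is the read count scaled to all reads in 3′ UTR intervals of the library, after TMM scaling. In bulk RNA, more MT2A per cell and more cells that express it cannot be told apart. All 12 libraries labelled ZFP36L1 stood above the highest NT library, which 4.20% of 10488 genes also did in that arm. The fitted log2 difference was 1.40 ± 0.13 (SE, adjusted p = 7.0e-11, edgeR quasi-likelihood test with Benjamini-Hochberg adjustment). In that comparison 21.7% of 13253 genes were called higher and 18.3% lower, a call being an adjusted p under 0.05 and a fold change over 1.2.

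ZNF706 knockdown was the other arm in which MT2A rose. There it ranged from 67.2 to 135.4 CPM with a median of 96.4, and 11 of 12 libraries exceeded the highest NT library at 80.9 CPM. The share of all genes with 11 of 12 libraries above NT was not counted. All 12 were above NT in 0.181% of 10488 genes. The log2 difference of MT2A was 0.69 ± 0.15 (SE, adjusted p = 0.0025, edgeR). Of 13072 genes, 2.85% were called higher and 2.29% lower in the ZNF706 arm. Without the libraries numbered replicate 1 the difference was 0.60 with an adjusted p of 0.063, and at 0 h alone it was 0.58 with an adjusted p of 0.40.

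In the other arms MT2A was not called. Its mean was 82.7 ± 38.6 CPM in the libraries labelled CNOT4, 76.9 ± 45.1 with BRCA1 knockdown, 67.9 ± 7.40 with MAZ, 65.7 ± 11.5 with ZMAT5, 62.6 ± 17.2 with PHF7 and 54.1 ± 5.5 with ZMAT3, against 60.2 ± 13.99 in NT (SD, n = 12 each). Of neighbours in the order of means, only the ZFP36L1 and ZNF706 arms differed by more than the larger of their SDs. In the PHF7 arm the lowest value, 9.03 CPM, was 1 read in the library of 63659 reads. BRCA1 knockdown spread widest, with values from 28.7 to 178.6 CPM.

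**Figure D1:**
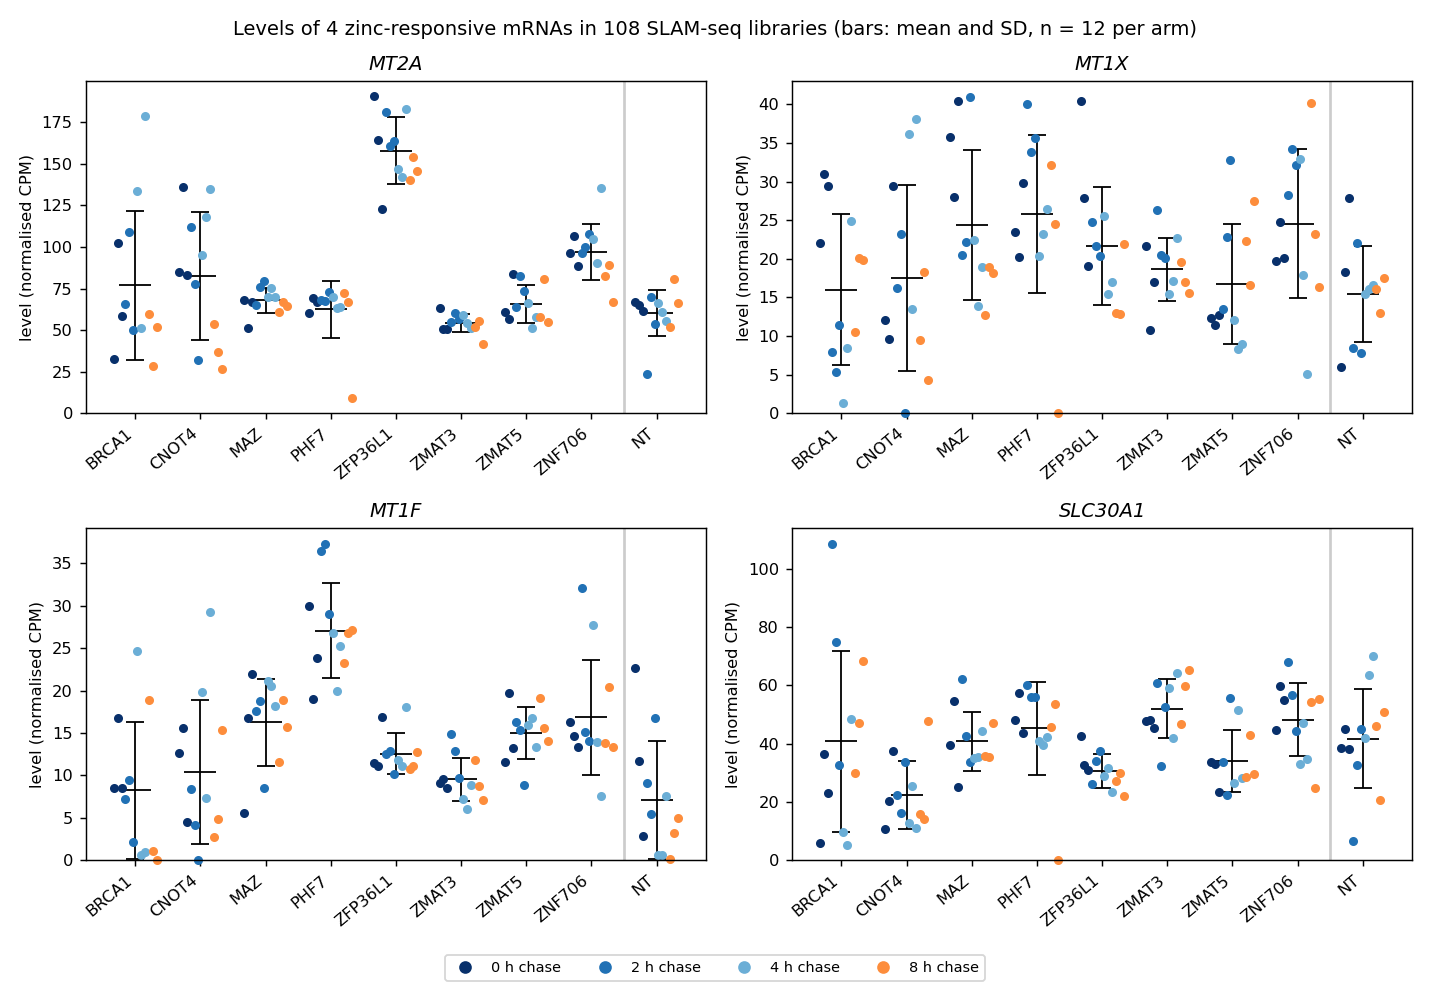
Normalised CPM (y axis) of MT2A, MT1X, MT1F and SLC30A1 in each library by arm (x axis), coloured by chase time, with the mean and SD of 12 libraries per arm. MT2A in the libraries labelled ZFP36L1 sits between 122.9 and 190.8 CPM, above all NT libraries, and MT1F in the PHF7 arm sits between 19.0 and 37.3 CPM.

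MT2A held its level over the chase in the libraries labelled ZFP36L1, while in ZNF706 knockdown it came nearest to NT at 8 h. There the ZNF706 libraries at 82.3, 89.4 and 67.2 CPM overlapped with those of NT at 51.8, 80.9 and 66.5 CPM. In the libraries labelled ZFP36L1 the means were 159.3 ± 34.2, 168.6 ± 10.9, 157.5 ± 22.4 and 146.8 ± 7.05 CPM at 0, 2, 4 and 8 h (SD, n = 3 each). With ZNF706 knockdown they were 97.1 ± 9.0, 101.3 ± 5.88, 110.0 ± 23.2 and 79.6 ± 11.4 CPM, against 64.5 ± 2.87, 48.9 ± 23.5, 61.1 ± 5.49 and 66.4 ± 14.6 CPM in NT. Against the libraries labelled CNOT4, MT2A in those labelled ZFP36L1 was higher by a log2 of 1.04 ± 0.19 (SE, adjusted p = 0.00075, edgeR). In that comparison 4.34% of genes were called higher. MT2A in the libraries labelled CNOT4 was at 101.4 ± 29.9, 74.1 ± 40.1, 116 ± 20.0 and 39.3 ± 13.6 CPM at 0, 2, 4 and 8 h (SD). Of these libraries, 4 had under 3000000 reads. Multimapped reads were 2.93% of MT2A reads in the libraries labelled ZFP36L1, and without them the difference from NT was 1.38 (adjusted p = 8.0e-11, edgeR). Libraries of both labels cover fewer T positions per read than NT, and the part of read length was not tested.

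MT1F, a metallothionein of the same cluster, was called in PHF7 knockdown. It ranged from 19.0 to 37.3 CPM there with a median of 26.8, against 0.114 to 22.6 CPM with a median of 5.25 in NT. The groups overlapped, with 10 of 12 PHF7 libraries above the highest NT library. These include the library of 63659 reads, in which 27.1 CPM was 3 reads. The share of all genes with 10 of 12 PHF7 libraries above NT was not counted, and 0.0858% of 10488 genes had all 12 above. The log2 difference of MT1F was 2.19 ± 0.47 (SE, adjusted p = 0.0024, edgeR), and 3.89% of 13324 genes were called higher and 4.53% lower. This call did not hold without the libraries numbered replicate 2, where the difference was 2.02 with an adjusted p of 0.094. At 0 h alone it was 0.97 with an adjusted p of 0.57, and the PHF7 libraries at 29.9, 19.0 and 23.8 CPM overlapped with 1 NT library at 22.6 CPM.

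NT values of MT1F were themselves uneven. They were 22.6, 11.6 and 2.86 CPM at 0 h, 9.14, 5.47 and 16.8 CPM at 2 h, 0.645, 0.602 and 7.58 CPM at 4 h, and 0.114, 3.18 and 5.02 CPM at 8 h. The coefficient of variation over 12 libraries was 20.8% in PHF7, 19.5% in the libraries labelled ZFP36L1 and 98.8% with BRCA1 knockdown, against 97.5% in NT. MT1F was fitted above NT in all 8 arms, by log2 values of 0.49 to 2.19, and these comparisons share the same 12 NT libraries. Apart from PHF7 none was called. Adjusted p was 0.075 in MAZ (log2 1.48), 0.089 in ZNF706 (1.55), 0.093 in the libraries labelled ZFP36L1 (1.12) and 0.12 in ZMAT5 (1.38), all by edgeR. Set against the other 7 knockdowns in place of NT, MT1F in PHF7 remained higher by 1.15 (adjusted p = 0.00026, edgeR).

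For MT1X no arm was called. Its mean was highest in PHF7 at 25.8 ± 10.3 CPM, followed by 24.6 ± 9.61 in ZNF706, 24.4 ± 9.74 in MAZ, 21.7 ± 7.62 in the libraries labelled ZFP36L1, 18.6 ± 4.05 in ZMAT3, 17.5 ± 12.1 in the libraries labelled CNOT4, 16.8 ± 7.79 in ZMAT5 and 16.01 ± 9.80 in BRCA1, against 15.4 ± 6.17 in NT (SD, n = 12 each). No neighbours in this order differed by more than their SD. The largest fitted difference was 0.78 ± 0.30 in PHF7 (log2, SE, adjusted p = 0.11, edgeR), and without the library of 63659 reads it was 0.85 with an adjusted p of 0.026. Leaving out multimapped reads turned the MT1X value in the libraries labelled ZFP36L1 to −0.07, against 0.46 with them, and in those labelled CNOT4 to −0.47, against 0.07 with them. None of these 4 values passed the test.

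MT1E and MT1G were not detected as expressed genes. MT1E had 1 read in the MAZ arm and 1 in the PHF7 arm, MT1G had 1 in the ZMAT3 arm and 1 in the ZMAT5 arm, and all were multimapped, so they cannot be assigned to these genes. In NT both had 0 of 127189500 reads, which allows a level of up to 0.0236 CPM. None of the 4 reads carried a conversion, and neither gene entered a test.

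SLC30A1, the exporter, moved in no arm by the test. It averaged 52.0 ± 10.1 CPM in ZMAT3, 48.2 ± 12.5 in ZNF706, 45.3 ± 15.9 in PHF7, 40.9 ± 10.1 in MAZ, 40.8 ± 31.0 in BRCA1, 34.1 ± 10.6 in ZMAT5, 30.5 ± 5.78 in the libraries labelled ZFP36L1 and 22.3 ± 11.8 in those labelled CNOT4, against 41.6 ± 17.01 in NT (SD, n = 12 each). No neighbours in this order differed by more than their SD. The lowest arm came nearest to a call. There SLC30A1 ranged from 10.7 to 47.8 CPM with a median of 18.4, against 6.58 to 69.9 CPM with a median of 43.6 in NT, and the log2 difference was −0.88 ± 0.34 (SE, adjusted p = 0.054, edgeR). Of 13308 genes in that comparison 13.5% were called higher and 13.5% lower. Without the 4 CNOT4-labelled libraries under 3000000 reads the difference was −1.22 with an adjusted p of 0.0055.

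MT2A and SLC30A1 did not move together in the libraries labelled ZFP36L1. MT2A was higher there by 1.40 while SLC30A1 stood at −0.41 ± 0.23 (log2, SE, adjusted p = 0.16, edgeR). In ZNF706 knockdown, where MT2A was higher by 0.69, SLC30A1 was at 0.24 ± 0.24 (adjusted p = 0.71) and MT1X at 0.65 ± 0.32 (adjusted p = 0.30). In all, 3 of 32 comparisons of a member with NT were called and 11 had an unadjusted p under 0.05. Over all genes and the same 8 arms, 14472 of 105546 comparisons were called, so the member calls do not stand out from the background. The share of genes called higher and lower was 0.0393% and 0.0393% in BRCA1, 5.19% and 3.55% in MAZ, 5.49% and 4.75% in ZMAT3, and 5.29% and 4.22% in ZMAT5, arms in which no member was called.

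**Figure D2:**
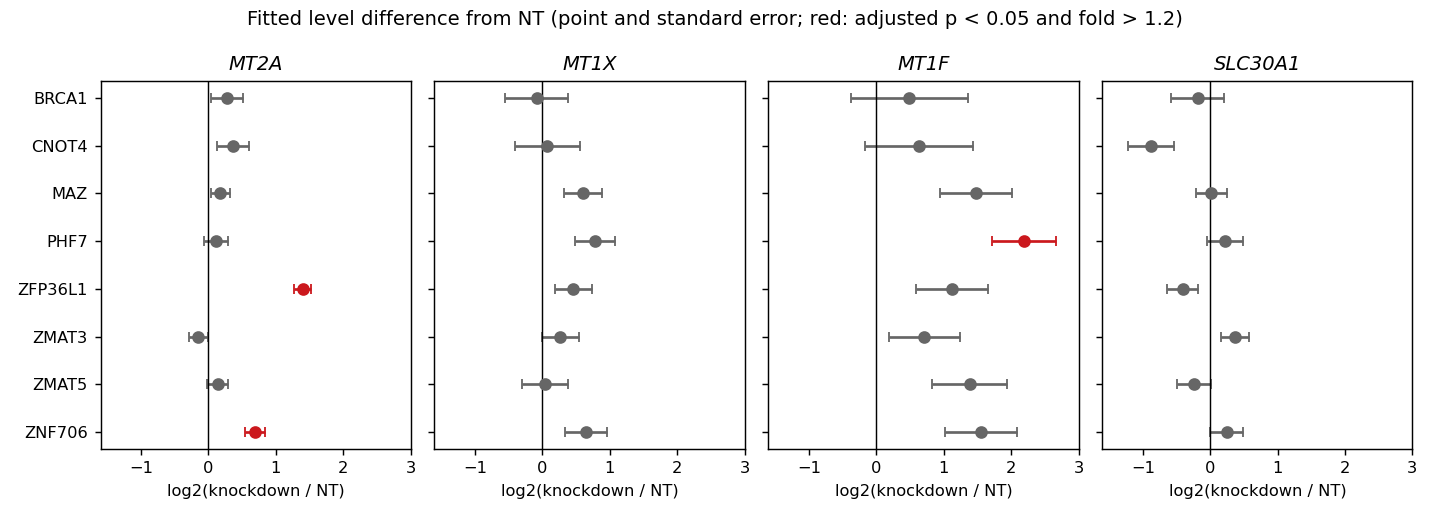
Fitted log2 difference of knockdown over NT (x axis) for 4 mRNAs in the 8 knockdowns (y axis), with the standard error as bars and called values in red. MT2A at 1.40 in ZFP36L1 and 0.69 in ZNF706, and MT1F at 2.19 in PHF7, are the 3 called values.

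The medium was replaced when the chase began, so levels were also compared over time. Within NT none of the 4 tested members was called (0 at an unadjusted p under 0.05, edgeR), where 0.00825% of 12126 genes were called. MT1F in NT was fitted at a log2 of −2.06 at 4 h and −2.15 at 8 h relative to 0 h (unadjusted p = 0.41, edgeR). With 3 libraries per time, the lack of a call does not show that a level held. Over all 9 arms none was called either, where 7.59% of 14962 genes were. MT2A had the smallest p, with log2 values of 0.16 at 4 h and −0.24 at 8 h relative to 0 h (adjusted p = 0.077). The difference from NT was not called to depend on chase time for any member in any arm, with 2 of 32 at an unadjusted p under 0.05, SLC30A1 in BRCA1 (0.030) and MT2A in the libraries labelled CNOT4 (0.040). That test called 0.0157% of genes in BRCA1, 0.571% in CNOT4 and 0% in each of the other 6 arms.

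Label was measured as the conversion rate, the percent of covered T positions read as C. At the end of labelling SLC30A1 carried the highest rates of the set in several arms. With ZMAT3 knockdown the 3 libraries had 4.39%, 4.39% and 4.72%. MAZ libraries had 3.92%, 3.75% and 4.13%, against 2.06%, 2.61% and 3.04% in NT. These ZMAT3 and MAZ values all lay above the NT values, yet the log2 ratios of 0.81 ± 0.28 and 0.61 ± 0.26 were not called (adjusted p = 0.056 and 0.095, edgeR on conversions with covered T positions as offset). The median ratio over all genes was 0.91 in ZMAT3 and 0.87 in MAZ, and the SLC30A1 ratios lay within their SE of these medians. How many genes lay wholly above NT in these libraries was not counted.

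MT2A rates at 0 h were 2.87%, 2.13% and 3.42% in BRCA1 and 2.86%, 2.50% and 2.54% in MAZ, against 1.85%, 0.952% and 1.24% in NT. Each BRCA1 and MAZ library was above each NT library, and the share of all genes that separated in this way was not counted. The log2 ratios were 1.06 ± 0.44 in BRCA1 (adjusted p = 1, edgeR) and 0.97 ± 0.37 in MAZ (adjusted p = 0.071, edgeR). The median log2 ratio over all genes was −0.07 in BRCA1 and 0.87 in MAZ. In the libraries labelled ZFP36L1, where the MT2A level was highest, rates were 1.66%, 1.72% and 1.65%. The ratio there was 0.31 ± 0.28, with a median over genes of 0.31. MT1F had the largest fitted ratios where it was tested, from 1.62 ± 1.76 in ZMAT5 to 3.42 ± 1.63 in MAZ (log2, SE). MT1X ratios ran from −0.41 ± 0.88 in ZMAT5 to 0.84 ± 0.52 in MAZ. Of 30 member comparisons at 0 h none was called, and 4 had an unadjusted p under 0.05. Called genes made up 0% of those tested in BRCA1, CNOT4 and ZNF706, 32.9% in MAZ, 0.131% in PHF7, 0.0367% in ZFP36L1, 25.5% in ZMAT3 and 2.51% in ZMAT5.

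Replicate libraries were uneven in label. MT1F in NT at 0 h had 62, 0 and 0 conversions in 258, 133 and 37 reads. At 2 h it had 0, 5 and 149 conversions in 93, 54 and 162 reads. SLC30A1 in NT at 2 h had 107, 116 and 4 conversions in 67, 323 and 435 reads, so that 94.0%, 35.6% and 0.920% of its reads carried label. MT2A in BRCA1 at 2 h had 11, 248 and 230 conversions in 550, 1033 and 489 reads. Reads carry no molecular identifiers with which copies of 1 molecule could be removed.

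Over the chase SLC30A1 lost label quickly and MT2A slowly. In ZMAT3 knockdown SLC30A1 rates were 2.95%, 2.27% and 2.54% at 2 h, 1.18%, 1.19% and 0.675% at 4 h, and 0.251%, 0.201% and 0.246% at 8 h. MT2A in the same libraries had 2.87%, 1.89% and 3.06% at 0 h and still 1.98%, 2.07% and 1.96% at 8 h. At 8 h SLC30A1 kept 0.508% to 26.6% of its 0 h label over the 9 arms, while MT2A kept 49.9% to 76.9%, and these ranges do not overlap.

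**Figure D3:**
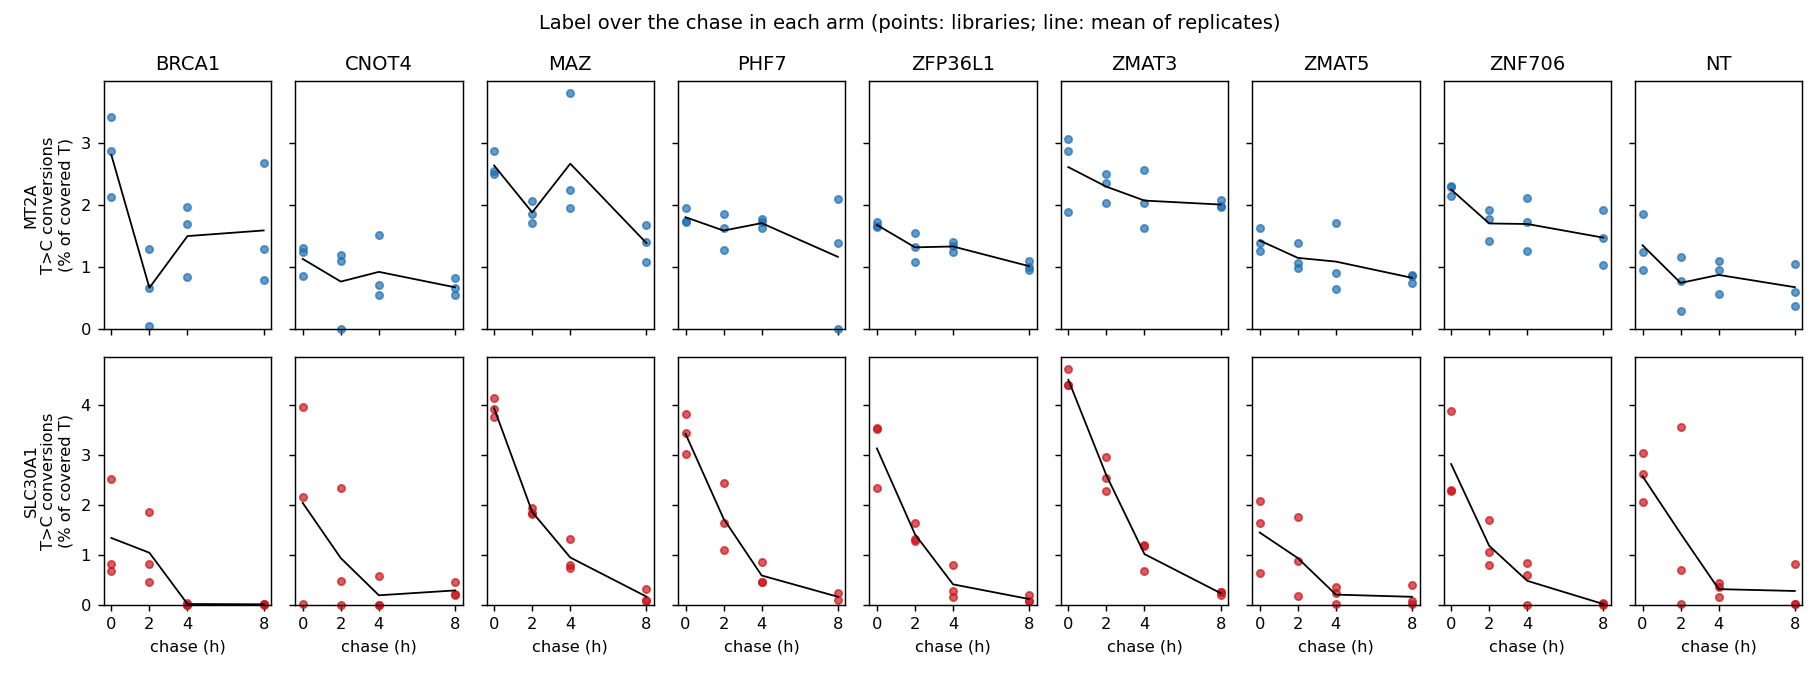
Percent of covered T positions read as C (y axis) over the chase in hours (x axis) for MT2A (top row) and SLC30A1 (bottom row) in each arm, with 1 point per library with reads and a line through the replicate means. SLC30A1 in ZMAT3 is at 4.39% to 4.72% at 0 h and at 0.201% to 0.251% at 8 h, while MT2A keeps 1.96% to 2.07% at 8 h.

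A first-order curve through the replicate means, kept where its R2 was over 0.6, gave SLC30A1 a half-life in all 9 arms. It was 1.75 h in BRCA1, 3.19 h in the libraries labelled CNOT4, 1.88 h in MAZ, 1.80 h in PHF7, 1.58 h in the libraries labelled ZFP36L1, 2.11 h in ZMAT3, 2.15 h in ZMAT5 and 1.56 h in ZNF706, against 0.794 h in NT. The NT curve left out the 2 h library with 67 reads, which was under the minimum of 5 CPM, and rests at 2 h on the libraries with 116 and 4 conversions. Curves by replicate number were close in some arms and far apart in others. The half-life was 2.07, 1.90 and 1.71 h in MAZ, 2.47, 2.07 and 1.83 h in ZMAT3, 1.30, 1.56 and 2.05 h in the libraries labelled ZFP36L1 and 2.14, 1.58 and 1.13 h in ZNF706. It was 1.17 and 2.50 h in PHF7, 2.95 and 0.792 h in BRCA1, 0.644 and 0.139 h in the libraries labelled CNOT4 and 1.29 and 0.731 h in ZMAT5, against 1.19 and 0.283 h in NT, where the other replicate number of each gave no curve. The value of 0.139 h is the shortest that the fit allowed. The NT value moved several-fold with the replicate number. The curve of the libraries labelled CNOT4 was lost (R2 0.20) without the 4 libraries under 3000000 reads. Between 2.90% and 45.3% of genes had a shorter half-life in the same arm, and in the other 7 knockdowns at most 18.1% did.

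MT2A had a half-life in 5 of 9 arms, 15.6 h in PHF7, 10.4 h in the libraries labelled ZFP36L1, 17.004 h in ZMAT3, 9.62 h in ZMAT5 and 10.7 h in ZNF706. It was longer than that of 88.1% to 97.0% of genes in these arms, whose medians over all genes were 3.78 to 5.06 h. Without the library of 63659 reads the PHF7 curve was lost (R2 −0.57), with 96.8% of the label left at 8 h. In BRCA1, MAZ, the libraries labelled CNOT4 and NT the R2 was −0.09 to 0.56 and no half-life was kept. Without the 4 libraries under 3000000 reads those labelled CNOT4 gave 16.8 h (R2 0.92). By replicate number, no curve reached the R2 minimum in PHF7 or ZMAT3. The kept values were 9.92 and 13.1 h in the libraries labelled ZFP36L1, 11.6 and 5.80 h in ZMAT5 and 14.1 and 5.78 h in ZNF706. Single replicate numbers gave 2.12 h in BRCA1, 6.57 h in the libraries labelled CNOT4, 9.68 h in MAZ and 3.96 h in NT. Half-lives longer than the 8 h chase are extrapolated.

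MT1X passed the CPM minimum in 5 arms and had a half-life in 4, 5.23 h in MAZ, 20.7 h in PHF7, 8.68 h in the libraries labelled ZFP36L1 and 8.22 h in ZMAT3. By replicate number the kept values were 3.90 h in MAZ, 15.1 h in PHF7 and 4.38 h in ZMAT3. In the libraries labelled ZFP36L1 they were 12.5 and 9.09 h. MT1F passed the CPM minimum in 5 arms, PHF7, MAZ, ZMAT5, ZNF706 and the libraries labelled ZFP36L1, and no curve through its replicate means reached the R2 minimum. In the PHF7 arm 68.1% of the MT1F label was left at 8 h, and 102.1% without the library of 63659 reads, in which MT1F had 3 reads and 0 conversions.

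**Figure D4:**
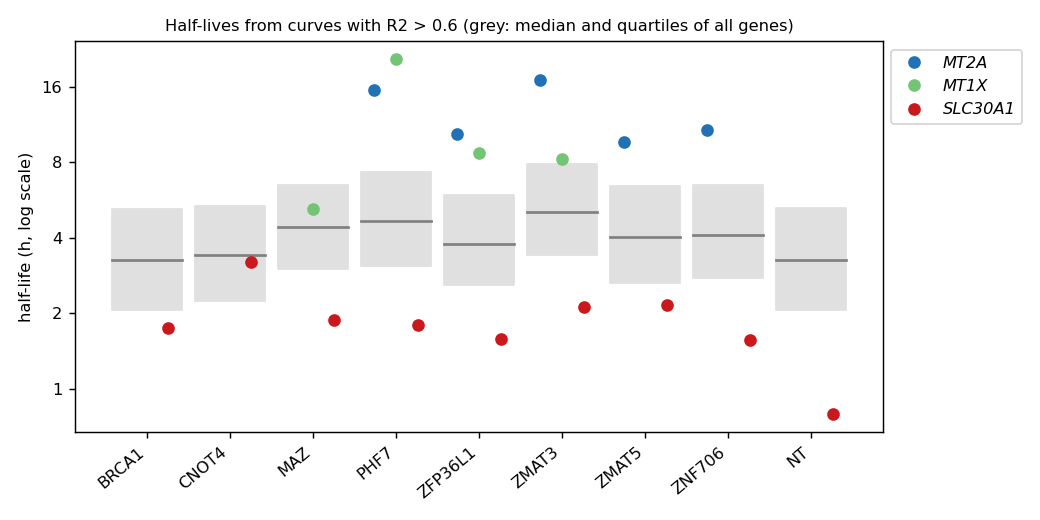
Half-life in hours (y axis, log scale) of MT2A, MT1X and SLC30A1 in each arm (x axis), shown where the curve had an R2 over 0.6, with the median and quartiles of all genes in grey. SLC30A1 lies between 0.794 and 3.19 h, below the gene median in every arm, and MT2A lies between 9.62 and 17.004 h.

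The counted 3′ UTR intervals differ in AU-rich sequence. ATTTA is the core of AU-rich elements, which are bound by ZFP36 family proteins and known to shorten the life of many mRNAs. The SLC30A1 interval of 3823 bases held 17 ATTTA on the strand of the gene, or 4.45 per kb. The metallothionein intervals of 233 to 471 bases searched held 0. These intervals differ in length, and other genes were not counted over whole intervals. In the last 230 bases, a length all members have, SLC30A1 held 1, as 40.4% of 16935 genes held at least 1. Whether ATTTA plays a part in the loss of label was not tested. The printed stretch was picked as the 30 bases of the SLC30A1 interval with the most ATTTA, which was 2. It shows the pattern found in the exporter's interval and in none of the metallothionein intervals searched, 1 per gene. It lies at chr1:211573050-211573079 on the minus strand and is printed 5′ to 3′ with ATTTA in capitals.
SLC30A1 3′ UTR: ATTTAaatattgtaggATTTAagtgtcttt

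The loss of label was compared with NT for MT2A and SLC30A1, the members that exceeded 5 CPM in 2 or more replicates of every time in both arms. None of 16 comparisons was called. In SLC30A1, BRCA1 knockdown lost label at a fitted 0.68 per h and ZNF706 knockdown at 0.65 per h, against 0.29 per h in NT. The order is the opposite of that of the curves through the replicate means, where the loss was 0.395 per h in BRCA1 and 0.443 per h in ZNF706, against 0.873 per h in NT, so no direction against NT can be given for SLC30A1. The fitted differences had an unadjusted p of 0.039 and 0.038 and adjusted p of 0.66 and 0.63 (edgeR). In MT2A the fitted loss was 0.0107 to 0.0676 per h over the knockdowns, against 0.0727 per h in NT, with adjusted p of 0.845 or more. In the libraries labelled ZFP36L1, where MT2A was higher, it was 0.0581 per h, and the difference in slope from NT was 0.01 ± 0.05 per h (SE). The test called 0% of genes in BRCA1, 0.0579% in CNOT4, 0.0402% in MAZ, 0.307% in PHF7, 0.0815% in ZFP36L1, 0.573% in ZMAT3, 0.0684% in ZMAT5 and 0.0136% in ZNF706.

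Other genes of zinc handling were counted as a list. None of 7 further metallothioneins, MT1A, MT1B, MT1H, MT1HL1, MT1M, MT3 and MT4, had enough reads to be tested. Of 24 genes of zinc import and export, MTF1 included, 19 were tested in each arm. Higher and lower calls were 4 and 4 in the libraries labelled ZFP36L1, 2 and 3 in those labelled CNOT4, 2 and 3 in PHF7, 3 and 0 with ZMAT5 knockdown, 3 and 1 with ZMAT3, 1 and 1 with MAZ or ZNF706, and 0 and 0 with BRCA1. Over all genes the shares called higher and lower were 21.7% and 18.3% in the libraries labelled ZFP36L1, 13.5% and 13.5% in those labelled CNOT4 and 5.49% or less in the other arms, so the counts in these 2 arms were near the background. The median log2 of the list lay between −0.18 in PHF7 and 0.18 in ZMAT3, where that of all genes tested was 0.07 and 0.09.

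SLC39A7, which releases zinc from the endoplasmic reticulum and Golgi into the cytosol, was lower in 6 arms. The log2 differences were −2.22 in the libraries labelled CNOT4, −2.08 in those labelled ZFP36L1, −0.67 in PHF7, −0.60 in ZNF706, −0.51 in ZMAT3 and −0.37 in MAZ. SLC39A1, a zinc importer of the plasma membrane, was lower by −1.38 in the libraries labelled ZFP36L1 and −1.20 in those labelled CNOT4, and higher by 0.28 with ZMAT3 knockdown, 0.35 with PHF7, 0.40 with ZNF706, 0.58 with MAZ and 1.01 with ZMAT5. SLC39A3, another importer of the same family, was higher by 1.55 in the libraries labelled ZFP36L1 and 1.42 in those labelled CNOT4. MTF1 itself was called in 1 arm, the libraries labelled CNOT4, at 0.99 ± 0.28 (log2, SE, adjusted p = 0.0077, edgeR). In the libraries labelled ZFP36L1 it was at 0.28 (adjusted p = 0.19) and in ZNF706 knockdown at 0.08 (adjusted p = 0.92).

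Lists of genes of copper handling, oxidative and heavy-metal stress, heat shock and glucocorticoid response were counted beside MT2A. These counts do not measure an inducer itself, and whether an inducer changed was not tested. The counts in the libraries labelled ZFP36L1 stand beside 21.7% of all genes called higher and 18.3% lower. Of 9 copper handling genes tested in the libraries labelled ZFP36L1, 4 were higher and 0 lower, among them the copper chaperone ATOX1 at 1.82 and the copper importer SLC31A1 at 0.71 (log2). Of 9 oxidative and heavy-metal stress genes tested there 0 were higher and 4 lower, with heme oxygenase HMOX1 at −3.48 ± 0.22 and thioredoxin reductase TXNRD1 at −1.56 ± 0.11. Heat shock genes split into 5 higher and 5 lower of 12, with HSPA1B at −1.74 and HSP90AA1 at 0.69. Of 8 glucocorticoid response genes 0 were higher and 3 lower, TSC22D3 at −1.12, SGK1 at −2.57 and DUSP1 at −1.17.

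In ZNF706 knockdown, with 2.85% of all genes called higher and 2.29% lower, the same lists gave 0 higher and 0 lower for copper, 1 and 2 for oxidative and heavy-metal stress with HMOX1 at −1.15, 0 and 1 for heat shock with HSPA1B at −0.56, and 0 and 1 for glucocorticoid response with TSC22D3 at −0.56. In PHF7 knockdown, where MT1F was called and 3.89% of all genes were higher and 4.53% lower, they gave 0 and 0, 1 and 0, 0 and 1, and 0 and 0 in that order. HMOX1 was lower in 6 of the 8 arms, the exceptions being BRCA1 at −0.32 (adjusted p = 0.64) and PHF7 at −0.14 (adjusted p = 0.67).

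The genes whose levels followed a member most closely were found by Pearson's r over the mean log2 levels of the 36 groups of arm and chase time, among genes over 5 CPM on average. For MT2A they were RPS16 (0.87), GAPDH (0.86), RPL19 (0.85), RPL13A (0.84) and RPL36 (0.84). Without the CNOT4 and ZFP36L1 groups, over 28 groups, these values were 0.77, 0.62, 0.58, 0.58 and 0.56. The groups with the highest MT2A took part in this choice, so the levels of the 5 genes there are given as a description. Their log2 differences from NT were 1.08, 1.497, 0.65, 1.65 and 1.51 in the libraries labelled ZFP36L1 and 0.57, 0.24, 0.11, 0.77 and 0.60 in ZNF706 knockdown.

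SLC30A1 was most like DNAJC3 (0.80), METAP1D (0.78), UBE2F-SCLY (0.77), TMEM209 (0.76) and SLC25A33 (0.76), and MT1X most like SNRPD2 (0.74), MRPS35 (0.73), MTFR1L (0.73), SUMF2 (0.72) and ATRAID (0.71). RPL36, UBE2F-SCLY, MTFR1L and SUMF2 share counted bases with another gene. Among the members themselves r was 0.50 between MT1X and MT1F, 0.38 between MT1X and SLC30A1, 0.29 between MT2A and MT1X, and −0.07 between MT2A and SLC30A1, where the median gene had an r of 0.13 with MT2A, 0.22 with MT1X and 0.21 with SLC30A1. The groups share a sequencing depth and read length within an arm, so these values describe the libraries only.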

How the data were processed

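The authors trimmed QuantSeq 3′ reads, aligned them to hg38 and counted them with SlamDunk 0.4.3. The deposited tables give, per 3′ UTR interval and library, counts of reads, multimapped reads, T>C reads, covered T positions and conversions. The deposited CPM is scaled to all mapped reads, and the rate deposited with it is the fraction of covered T positions that were converted. The sources used here do not give a strand setting, variant mask or base-quality minimum. No columns of the authors' own comparisons were used.

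Counts of 69079 intervals were summed per Ensembl identifier into 19761 genes, of which GENCODE release 44 named 19501. Interval ends are 1-based as deposited, and 81.72% of intervals equalled a UTR of that release. Levels were fitted with edgeR 4.0.16 (R 4.3.3, TMM, filterByExpr, quasi-likelihood test) per knockdown on its 12 libraries and those of NT, with time as a factor. Label tests used conversions with the log of covered T positions as offset, in genes with 2 or more replicates over 5 deposited CPM. A call needed an adjusted p under 0.05, and for levels also a fold over 1.2. Half-lives are descriptions from least-squares curves. Scripts were tested on simulated data.

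The methods call the replicates biological. All replicate pairs within groups differed beyond counting noise (chi-square per degree of freedom 5.09 to 113.5), so none was counted as a duplicate. Limits on genes without reads allow 3 counts and cover counting error only. The members and lists were chosen with earlier results of these data known. The text covers all 6 members in the level comparisons and the tested members in the label comparisons, in part as ranges. Of the lists it names MTF1 and some of the 3 called genes with the smallest p in an arm, and it names the 5 genes most like a member. Others of these called genes are left out, among them SLC39A6 (log2 −0.97), SLC30A10 (4.59) and OSGIN1 (4.96) in PHF7. HMOX1 and SLC39A1 were followed across arms after their values were seen. Alternatives were RLE scaling, DESeq2 1.42.0, limma 3.58.1, no low-count filter, no multimapped reads, fewer times or libraries, other references and a replicate block.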

Additional observations from a re-analysis of the deposited data

How the results depend on the processing

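Of 32 level comparisons with NT, 3 were called, and 9 by DESeq2, 1 at 0 h alone, 7 against the other 7 knockdowns, 6 without libraries under 3000000 reads and 2 to 4 when each replicate number was left out. MT2A in the libraries labelled ZFP36L1 kept its call in each alternative run, with log2 values of 1.28 to 1.55 without a replicate number. MT2A in ZNF706 knockdown lost its call at 0 h alone (0.58) and without replicate 1, with a range of 0.60 to 0.81 when a replicate number was left out. MT1F in PHF7 knockdown lost it at 0 h alone (0.97) and without replicate 2, with a range of 2.02 to 2.95. The sign of MT1F in BRCA1 turned against the other 7 knockdowns, to −0.82 with an adjusted p of 0.036 by edgeR. The causes were not tested, beyond the fewer libraries that some alternatives hold. No label comparison was called in the alternatives, except 1 at 0 h (0 to 1 without a replicate number), MT1F in MAZ without replicate 1 with a log2 ratio of 10.5, where NT had 0 conversions, and no time comparison of a member was called. The added settings were chosen after the data were seen.

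Knockdown samples did not deviate together with NT samples of the same number and chase time (r −0.03 to 0.03 in 96 pairs). The numbers therefore showed no pairing with NT, and pairing between knockdowns or along the chase was not examined. With a replicate block 4 level comparisons were called, and SLC30A1 in the libraries labelled CNOT4 was called at −0.91 (adjusted p = 0.038, edgeR), MT2A was at 1.41 in ZFP36L1 and 0.70 in ZNF706, and MT1F at 2.26 in PHF7. Called label-loss genes summed over arms were 85, and 56 with the block, 277 by limma and 20 to 52 without a replicate number. Called label genes at 0 h were 5046, and 2883 with the block, 1979 by limma, 1211 on T>C reads, 5 relative to each library's pooled rate and 1161 to 2159 without a replicate number. Level calls were 14472, and 3627 at 0 h alone, 28637 against the other knockdowns and 8762 to 11403 without a replicate number. Time calls were 1136, and 2029 without libraries under 3000000 reads and 115 to 812 without a replicate number.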
